A study of Equus caballus with 34 samples.

Results

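The wall of the equine dominant follicle was compared at its last stage before ovulation and at the start of dominance. The samples were the theca wall (TW) arrays labelled preovulatory (PO, 5 arrays) and those labelled early dominant (ED, 5 arrays), 10 of the 34 one-colour arrays of the series. The members are all genes and unnamed transcripts on the array, and no measured value was used to choose them. The horses (Equus caballus) carried no treatment or allele that the labels name, and the sources used here give no breed, age, follicle or animal for an array. Replicates are called biological in the design text, and nothing ties an array to an animal, so p-values measure the spread between these samples. The other arrays were 9 of late dominant (LD) theca wall and 5 of granulosa cells (GC) at each stage. ED and PO arrays of 1 number shared a slide.

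The follicle wall has an outer vascular theca and an inner granulosa layer. Theca cells answer luteinising hormone by making androgens from cholesterol, which granulosa cells convert to estrogens. Hedgehog ligands made by granulosa cells act on the theca, where GLI1, PTCH1 and HHIP are transcribed in response. The preovulatory surge of luteinising hormone starts a cascade of EGF-like ligands, prostaglandins, proteases and inflammatory mediators that opens the wall, and blood vessels and leukocytes of the theca take part in it. As the theca wall is a tissue, its RNA comes from steroid-making cells, fibroblasts, smooth muscle, endothelium and blood cells, and in such bulk samples fewer cells of a type and less RNA per cell cannot be told apart.

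Levels are log2 of the processed spot intensity minus the 75th percentile of the same array. Changes are PO minus ED on that scale, with the standard error (SE) from a limma fit on the 19 TW arrays, and p-values were adjusted across every feature by the Benjamini-Hochberg method, with 0.05 as the limit for a call. On ED arrays 72.8% to 77.7% of spots were well above background, and on PO arrays 78.3% to 82.5%, so the groups did not overlap in this measure of detection. Theca stromal markers identified the layer. All 14 tested were well above background on every ED and PO array, and their summed linear level was 182 to 289 on ED and 186 to 260 on PO arrays, against 17.2 to 52 on GC ED and 8.24 to 39.6 on GC PO arrays. Granulosa markers summed to 44.4 to 127 on ED and 63.6 to 85.3 on PO arrays, against 285 to 480 on GC ED and 186 to 230 on GC PO arrays. The sums on ED 3 and ED 5, at 91.2 and 127, were the highest of the 10. CYP19A1, the granulosa aromatase, lay at 2.79 and 3.95 on ED 3 and ED 5 and between −2.41 and −1.94 on the other 3 ED arrays. The part of granulosa RNA in the results was not tested, and results are also given without ED 3 and ED 5, which leaves 3 ED arrays.

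Arrays of slide 7, which held ED 4, PO 4, LD 6 and LD 7, stood apart. Repeated probes varied by 24.5% on ED 4 and 15.4% on PO 4, against 3.7% to 6.12% on the other 8 arrays. Outlier spots, flagged as non-uniform or as apart from their replicate spots, numbered 1317 and 1718 there, against 86 to 593. In a principal component analysis of 17323 features the first component, with 33% of the variance, separated PO arrays (−89 to −64.3) from ED arrays (15.9 to 62.4). LD 6 lay among the PO arrays at −74.7. The second component, with 15.4%, set slide 7 apart at −78.4 to −50.1. Counts are therefore given without slide 7 as well.

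**Figure D1:**
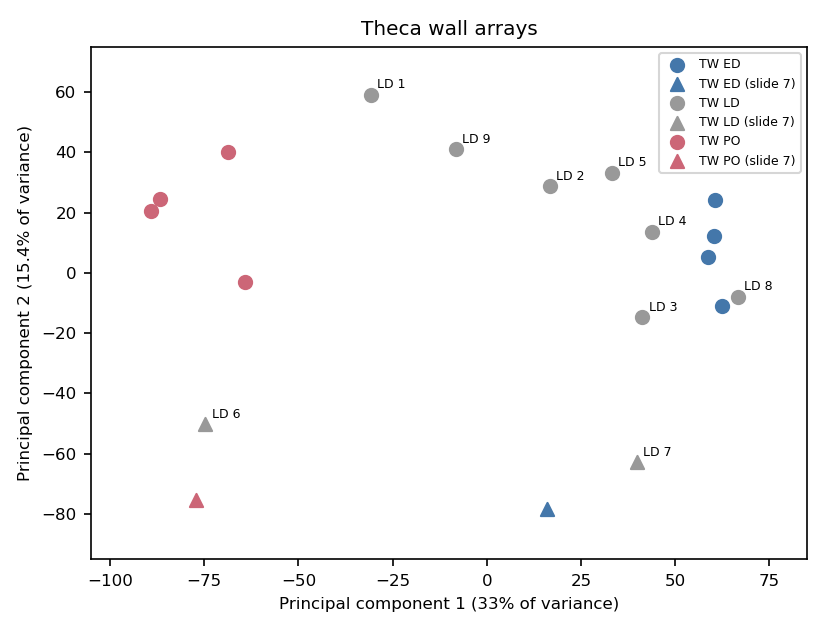
Principal components 1 and 2 of the 19 theca wall arrays, coloured by stage, with arrays of slide 7 as triangles and LD arrays numbered. All 5 PO arrays lie at −64.3 or below on component 1 and all 5 ED arrays at 15.9 or above, with LD 6 beside the PO arrays and the 4 arrays of slide 7 lowest on component 2.

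The comparison asked how the transcripts of the theca wall differ between early dominance and the eve of ovulation. Of 19284 features tested, 2801 (14.5%) were called higher and 1550 (8.04%) lower at PO, 22.6% in all. Among the 10197 with a gene symbol, 1653 (16.2%) were higher and 670 (6.57%) lower. Every member of the gene lists below carries a symbol, so list shares given beside all features should also be read against these. Rises were larger than falls: 2077 of the higher calls exceeded 2-fold, 277 exceeded 8-fold and 48 exceeded 32-fold, against 768, 31 and 2 of the lower calls. On all 5 slides the PO array lay above its ED partner for 2342 of the higher calls, and below it for 1277 of the lower calls. Of all 19284 features 6916 kept 1 direction on all 5 slides. The calls rest on the same arrays, so these counts are no separate evidence. The 5 PO arrays lay wholly above the 5 ED arrays for 1698 higher calls (10.5% of all features did so) and wholly below them for 924 lower calls (6.16% did so). Without slide 7 the counts were 3289 and 1969, and without ED 3 and ED 5 they were 1384 and 767. Falls numbered 965 without PO 1 and 950 without PO 3.

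The balance of rises and falls depended on the scaling. The median change of all features was 0.13 with the 75th percentile, −0.13 with median centring, −0.048 with quantile normalization and −0.063 in the deposited value table. The share of calls that were higher was 64.4%, 34.1%, 46.2% and 39.5% in the same order. It was 54.3% with outlier spots kept. Small changes should be read against the shift of 0.13. The size of a rise is not exact where only some ED arrays were well above background. That was 1 of 5 for SAA1, OLR1, FGF7, HAS2, NR4A3, AREG, MMP1, GLI3 and TAC1, and 2 of 5 for CHRDL2, BDNF and S100A9. It was 3 of 5 for FZD4, C3, EREG, NTS, S100A12, TBX19 and WNT11. It was 4 of 5 for THBD, SLC2A3, CXCL8, ALDH1A3, ATF3, CDKN1A, CALCB, HSD11B1, SRD5A1 and NPY. No named gene that was called reversed its direction under any of the 28 alternative settings. Some of these settings left most differences as they were, so a reversal could not arise there. Of 192 named genes called, 111 lost the call under 1 or more.

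Several of the large rises were in genes of peptide hormones and secretory granules. SST, the gene of somatostatin, lay at −9.06, −8.75, −8.81, −8.08 and −9.02 on ED arrays 1 to 5 and at −1.21, −2.31, 0.69, −0.77 and 0.11 on PO arrays 1 to 5. Its signal was well above background on every PO array and on no ED array, a rise of at least 197-fold (8.04 ± 1.01 SE, adjusted p = 0.000468). All 5 SST probes rose, by 7.85 to 8.13. CHGB, the gene of chromogranin B, a protein of secretory granules, lay at −8.38, −8.50, −8.76, −7.67 and −7.61 at ED and at −1.16, −1.37, −2.23, −2.82 and −0.47 at PO. No array of either group came near the other, and the rise was at least 74.3-fold (6.58 ± 1.12 SE, 0.0012). GCG, which encodes proglucagon, rose at least 90.7-fold (6.84 ± 1.24 SE, 0.00166), from −9.01 to −8.03 over the ED arrays to −3.70 to −0.95 over the PO arrays. Such minimum folds hold on the main scale only. Over the 28 alternative settings the smallest log2 rises were 3.27 for SST, 2.51 for CHGB and 2.57 for GCG.

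CGA, the alpha subunit shared by the glycoprotein hormones, was measurable on all ED arrays, at −3.78, −4.22, −4.54, −3.09 and −4.32. At PO it lay at 5.05, 4.80, 4.36, 2.19 and 4.94, with PO 4 of slide 7 lowest, and rose by 8.26 ± 1.43 SE (0.00158) with all 9 of its probes between 7.77 and 8.79. CALCA, which yields calcitonin or calcitonin gene-related peptide by alternative splicing, lay at −8.41, −8.61, −8.77, −8.22 and −7.94 at ED and at −2.84, −3.96, −2.60, −3.71 and −1.39 at PO. The groups lay far apart and the rise was at least 34.5-fold (5.49 ± 0.87 SE, 0.000889). Over the alternative settings the smallest log2 rise of CALCA was 1.53. Of its 6 probes 5 rose, by up to 6.41. The sixth was at −0.50 ± 0.88 SE (adjusted p = 0.704 over all probes), with ED 4 at −1.45 and the other 9 arrays at −6.30 or below. The related CALCB, named after its value was seen and missing on PO 1, rose by 7.57 ± 1.64 SE (adjusted p = 0.00393 over all probes).

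NTS (neurotensin, 7.49 ± 1.66 SE), PENK (proenkephalin, 6.58 ± 1.27 SE) and the neurotrophin gene BDNF (4.23 ± 0.78 SE) rose with 5 of 5 PO arrays beyond the ED range. For NTS and PENK that was a condition of being picked. TAC1, the precursor of substance P, rose by 6.33 ± 1.68 SE (0.0128), with 4 of 5 beyond. Without ED 3 and ED 5 it was at 5.29 and no longer called, and with slide as a block over the 10 arrays its adjusted p was 0.0652. Galanin (GAL, at least 11.2-fold), vasoactive intestinal peptide (VIP, 3.37) and neuropeptide Y (NPY, 2.46) were called as well. In the list of neuropeptides, peptide hormones and their receptors 18 of 46 tested members rose and 2 fell, with a median of 0.78 beside 0.13 for all features. These were 39.1% and 4.35% of members, against 14.5% and 8.04% of all features. The members that fell were the kisspeptin gene KISS1 (−1.56) and PTH1R, the receptor of parathyroid hormone (−1.97). There were 21 rises without slide 7 and 12 without ED 3 and ED 5. The list median was above 0 on all 5 slides (0.58 to 1.24).

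Several of these genes were named from descriptions in the array's design, so the probes of CHGB, GCG and of the leading feature CHRDL2 are shown for a reader who wishes to check the name. They are 60 bases long and are printed 5′ to 3′ with the chromosome, start, end and strand of the design, whose genome build the sources used here do not name. The CHGB probe lies at chr22:17351071-17351159 (−), the GCG probe at chr18:30992228-30992287 (−) and the CHRDL2 probe at chr7:57098199-57098258 (+).
CHGB: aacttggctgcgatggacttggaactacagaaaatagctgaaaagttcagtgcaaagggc
GCG: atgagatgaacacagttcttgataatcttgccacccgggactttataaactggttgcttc
CHRDL2: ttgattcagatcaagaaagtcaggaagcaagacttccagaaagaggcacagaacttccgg
The GCG probe printed here is 1 of 4 that rose by 6.77 to 7.54, CHGB had 5 that rose by 6.58 to 7.29, and CHRDL2 had this probe alone.

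CHRDL2, chordin-like 2, a secreted binder of bone morphogenetic proteins, had the largest change of any feature with a symbol. Its ED levels were −6.94, −8.22, −9.30, −5.76 and −6.73 and its PO levels 0.24, 1.97, 0.96, −0.43 and 2.05. The groups were more than 5 log2 units apart, for a difference of 8.35 ± 1.61 SE (0.00222). FGF7, a growth factor that stromal cells make for epithelia, lay at −8.82, −8.56, −9.17, −6.36 and −9.25 at ED and at −0.12, −0.41, −0.25, −2.22 and −0.24 at PO. The arrays of slide 7 stood closest together, and the rise was 7.78 ± 1.46 SE (0.00193). ALDH1A3, which makes retinoic acid, rose by 7.57 ± 1.44 SE, OLR1, a scavenger receptor for oxidised low-density lipoprotein, by 7.50 ± 1.30 SE, and TBX19, a transcription factor known from pituitary cells, by 6.79 ± 1.64 SE. Over all features of the fit the adjusted p of these 3 lay between 0.00133 and 0.00773.

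Of the 26 tested genes of the ovulatory cascade 15 rose, 10 were not called and 1 fell. Rises were 57.7% and falls 3.85% of members, against 14.5% and 8.04% of all features. EREG, the EGF-like ligand epiregulin, lay at −8.30, −8.55, −6.69, −4.97 and −6.68 at ED and at 1.72, −3.32, 1.54, −0.70 and 2.04 at PO, with PO 2 the lowest and still above every ED array. It rose by 7.29 ± 1.34 SE (0.00171). RGS2, a brake on G-protein signalling, went from −0.32, −2.12, −1.59, −0.55 and −1.92 to 4.48, 2.02, 4.17, 3.72 and 4.04. Again PO 2 was lowest and the groups did not overlap (4.99 ± 0.57 SE, 0.000463). The matrix genes TNFAIP6 (5.29 ± 1.01 SE) and HAS2 (5.10 ± 1.04 SE), which modify and make hyaluronan, rose as well, as did the ligand AREG (4.61 ± 1.02 SE, 4 of 5 PO arrays beyond). HAS2 and AREG lost their calls with normexp background correction, at adjusted p of 0.125 and 0.0797.

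PGR, the progesterone receptor needed for follicle rupture in mice, lay at −2.52, −2.10, −2.51, −1.93 and −2.24 at ED and at 0.16, −1.61, −0.48, −0.99 and −0.081 at PO. The groups did not overlap, the rise was 1.66 ± 0.31 SE (0.00199), and its 6 probes rose by 1.29 to 1.87. PTGS2, the inducible prostaglandin synthase, lay at −1.39, −1.13, −1.71, −0.46 and −1.32 at ED and at 0.51, −1.79, 1.04, 0.13 and 0.63 at PO. PO 2 was below every ED array, and the call at 1.30 ± 0.43 SE (0.0377) was lost under 16 of the 28 alternative settings. It was lost on leaving out any ED or PO array but ED 4 and PO 2, with values of 1.07 to 1.32. Its other 2 probes were at 1.96 and 4.75. PTGES, which makes prostaglandin E2 from its product, differed between probes. The brightest was at 0.35 ± 0.35 SE (0.497), and the other 4 rose by 2.58 to 2.78 (adjusted p of 0.00501 to 0.00871 over all probes). The member that fell was the nuclear corepressor NRIP1 (−0.49), and the list median was 2.35. There were 15 rises without slide 7 and 12 without ED 3 and ED 5. On slide 4, which holds PO 2, the list median was 0.98, the lowest of the 5 slides (highest 2.59).

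Immediate early genes, the transcription factors and phosphatases that stimulated cells switch on first, gave 18 rises and 0 falls among 24 (median 1.90, 14 rises without slide 7, 13 without ED 3 and ED 5). The rises were 75% of members, against 14.5% of all features. The orphan nuclear receptor gene NR4A2 lay at −3.74, −4.60, −4.84, −5.06 and −3.90 at ED and at 2.57, −2.17, 3.07, 1.33 and 2.59 at PO. PO 2 was lowest once more, without reaching the ED range (5.91 ± 1.00 SE, 0.00113). NR4A3 (5.66 ± 1.20 SE, well above background on 1 of 5 ED and 4 of 5 PO arrays), IER3 (4.24 ± 0.83 SE, missing on ED 4), ATF3 (3.74 ± 0.73 SE) and JUNB (3.73 ± 0.69 SE) followed. On slide 4 the median of the list was 0.88, against 1.83 to 2.32 on the other slides.

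**Figure D2:**
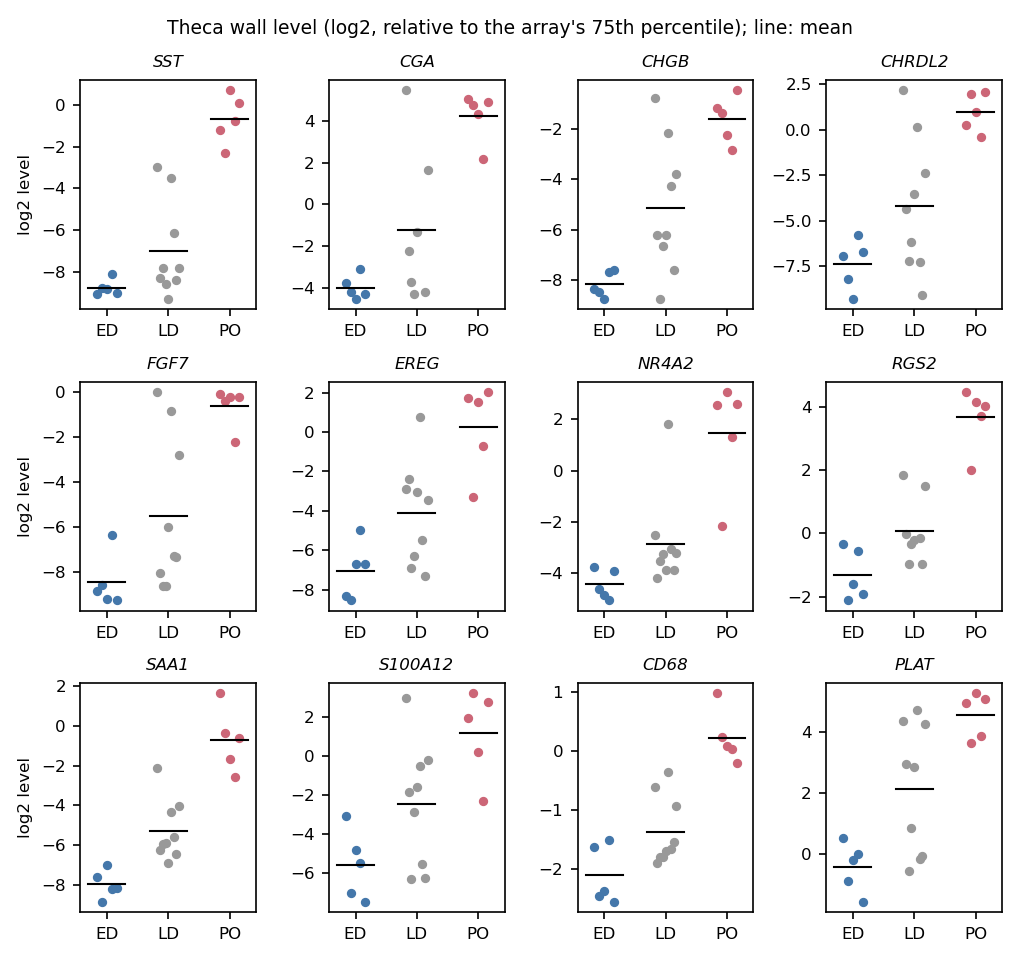
Level of 12 genes that rose, on the log2 scale relative to the 75th percentile of the array, in each ED (5), LD (9) and PO (5) array of theca wall, with the mean as a line. In all 12 panels the PO arrays lie above the ED arrays. In all but those of SST, RGS2 and CD68, 1 or more LD arrays reach the PO range.

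Among matrix proteases and their inhibitors 16 of 28 rose and 0 fell (median 1.57, range over slides 0.75 to 1.91). The rises were 57.1% of members, against 14.5% of all features. PLAT, the tissue plasminogen activator, lay at 0.54, −0.88, −0.20, 0.0043 and −1.57 at ED and at 4.97, 3.65, 5.28, 3.87 and 5.11 at PO. Every PO array was more than 3 log2 units above the highest ED array (5.00 ± 0.94 SE, 0.00196). MMP1, interstitial collagenase, lay at −7.52, −8.53, −8.37, −4.30 and −9.50 at ED, where ED 4 alone was well above background. At PO it was at −1.09, −2.15, −2.40, −3.88 and −0.53, so that only slide 7 brought the groups near each other (5.63 ± 1.32 SE, 0.00661, and 4.77 with adjusted p = 0.0561 without ED 3 and ED 5).

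ADAMTS4 and ADAMTS1 encode proteases that cleave versican-type proteoglycans. ADAMTS4 lay at −1.78, −1.51, −2.37, −2.47 and −2.51 at ED and at 2.85, 0.61, 2.85 and 3.04 on PO 1, 2, 3 and 5, with no value on PO 4 (4.46 ± 0.80 SE, 0.00171). ADAMTS1 went from 2.07, 1.5, 1.95, 2.12 and 1.79 to 4.64, 3.63, 4.56, 4.33 and 4.23 (2.39 ± 0.42 SE, 0.00134). Neither gene had an overlap between the groups. The urokinase receptor gene PLAUR (3.94 ± 0.87 SE) rose too. PLAU, urokinase itself, was higher on all 5 PO arrays (1.23 to 1.72) than on any ED array (−0.82 to 0.72) but was not called (1.47 ± 0.55 SE, 0.0597). It was called at 1.71 (0.0409) without slide 7, and LD arrays ran from −1.29 to 1.91. TIMP1, an inhibitor of metalloproteinases, was saturated on 5 of 5 PO arrays and on 0 ED arrays, so its difference has no exact size, and it was not called (0.0669). Protease rises numbered 16 without slide 7 and 8 without ED 3 and ED 5.

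Both serum amyloid A genes measured rose, as did 17 of 29 complement and 21 of 35 cytokine genes (58.6% and 60%, against 14.5% of all features). SAA1, the gene of serum amyloid A1, an acute-phase protein, lay at −7.62, −8.87, −7.0, −8.22 and −8.18 at ED and at 1.64, −0.36, −1.67, −2.57 and −0.62 at PO (7.26 ± 0.81 SE, 0.000365). A second gene described as serum amyloid A was below that detection limit on all ED arrays, at −8.82, −8.79, −9.66, −8.46 and −7.44. At PO it lay at 0.58, −1.84, −3.08, −4.51 and −2.10, a rise of at least 56.9-fold (6.44 ± 1.00 SE, 0.000802). Its smallest log2 rise over the alternative settings was 2.2. PO 1 was highest for both genes and PO 4 lowest. Their probes are shown because the genes are near-identical copies, and RNA of one bound to the other's spot cannot be told apart. The SAA1 probe lies at chr7:74139463-74139923 (−) and the SAA probe at chr7:74288857-74289346 (+), each over an interval longer than the probe, and capitals mark the longest run of 27 bases that both share.
SAA1: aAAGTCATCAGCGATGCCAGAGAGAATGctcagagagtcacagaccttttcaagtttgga
SAA: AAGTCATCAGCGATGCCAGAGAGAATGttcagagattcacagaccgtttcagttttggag
The 7 probes of SAA1 rose by 6.44 to 7.26, the one printed by 7.21.

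Complement and coagulation genes gave 17 rises and 0 falls among 29 (median 1.5, 19 rises without slide 7, 13 without ED 3 and ED 5). C3, the central complement component, lay at −8.34, −6.43, −6.01, −1.14 and −5.73 at ED and at 1.87, 0.52, −0.31, 0.56 and 0.39 at PO. ED 4 was far above the other ED arrays yet below every PO array (6.14 ± 1.09 SE, 0.0015). THBD, the anticoagulant receptor thrombomodulin (4.44 ± 0.54 SE), CFB, factor B (4.29 ± 0.82 SE), and TFPI2, a protease inhibitor (3.71 ± 0.65 SE), rose with all 5 PO arrays beyond.

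Cytokine, chemokine and adhesion genes rose in 21 of 35 cases and fell in 0 (median 1.40, 23 rises without slide 7, 11 without ED 3 and ED 5). IL1RN, the interleukin-1 receptor antagonist, went from −4.34, −5.73, −5.60, −5.37 and −6.36 to 0.42, 1.99, 0.41, −2.73 and 0.56. PO 4 was lowest and the groups stayed apart (5.61 ± 1.18 SE, 0.0036). The neutrophil attractant CXCL8 (3.66 ± 0.67 SE), the monocyte attractant CCL2 (3.22 ± 0.75 SE) and SELP, the P-selectin of endothelium and platelets (3.17 ± 0.59 SE), rose. CXCL8 lost its call with normexp background correction (0.0553) and CCL2 with all 34 arrays in 1 fit (0.0925). Of 29 interferon response genes 8 rose (27.6% against 14.5% of all features) and 0 fell, led by ISG15 (3.76 ± 0.60 SE, 0.000889). That count was 5 on leaving out ED 1, ED 2, ED 3, ED 5, PO 1 or PO 5, each in turn.

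Markers of macrophages were higher on the same PO arrays. Of 18 macrophage and monocyte markers 16 rose (88.9% against 14.5% of all features) and 0 fell. The median was 2.02, with 17 rises without slide 7 and 13 without ED 3 and ED 5. The markers' summed level was 5.41 to 13.9 on ED and 20.1 to 64.2 on PO arrays. CD68, a lysosomal protein of macrophages, lay at −1.64, −2.47, −2.38, −1.51 and −2.57 at ED and at 0.98, 0.24, 0.087, 0.039 and −0.20 at PO (2.34 ± 0.33 SE, 0.000616). CD14, a receptor for bacterial lipopolysaccharide, went from 0.70, −0.44, −0.53, 1.53 and −0.61 to 4.25, 2.82, 3.65 and 4.05, with no value on PO 4 (3.57 ± 0.71 SE, 0.00291). The groups did not overlap in either gene. The monocyte genes CSF1R and LYZ were the 2 markers not called.

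Neutrophil markers gave 5 rises among 9, 55.6% against 14.5% of all features (median 1.86, 6 rises without slide 7, 2 without ED 3 and ED 5). Their sum went from 0.774 to 1.4 at ED to 2.97 to 11.5 at PO. S100A12, a calgranulin of granulocytes, lay at −3.07, −6.99, −4.79, −5.46 and −7.46 at ED and at 1.97, 3.21, 0.21, −2.28 and 2.75 at PO. PO 4 came nearest to the ED range, within 1 unit of ED 1 (6.73 ± 1.53 SE, 0.00559). For S100A9, its partner calgranulin, the rise was 5.29 ± 1.30 SE (0.00869), and adjusted p = 0.0558 with normexp background correction. Lymphocyte and mast cell markers had 3 of 13 called higher (23.1% against 14.5% of all features), and their sums overlapped, at 5.12 to 9.72 for ED and 5.13 to 11.3 for PO. That count was 1 without ED 5 or PO 1, 6 without ED 4 and 0 without both ED 3 and ED 5. Red blood cell genes summed to 0.129 to 0.456 at ED and 0.198 to 1.45 at PO, and HBA, alpha globin, rose by 1.90 ± 0.54 SE (0.0185), a call lost without ED 2 (adjusted p = 0.0503) and with normexp background correction (0.189). The share that leukocytes and blood had in the rises of cytokine, complement and protease genes was not tested.

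Hedgehog target genes fell, and GLI1 had the largest fall of any feature with a symbol. GLI1, the transcription factor that hedgehog signals induce, lay at 0.86, 2.25, 1.04, 1.74 and 0.36 at ED and at −5.96, −2.45, −6.98, −2.95 and −5.26 at PO. Every PO array lay more than 2 log2 units below the lowest ED array (−5.97 ± 0.76 SE, 0.000468). PTCH1, the hedgehog receptor, went from −1.39, −0.47, −1.49, −1.47 and −2.36 to −5.37, −4.14, −5.32, −4.22 and −5.44 (−3.46 ± 0.46 SE, 0.000569). HHIP, a decoy that binds the ligands, went from −2.32, −1.48, −1.93, −2.89 and −3.78 to −5.56, −6.15, −6.47, −5.23 and −5.50 (−3.30 ± 0.60 SE, 0.00165). HHIP had no overlap between the groups either, while for GLI1 and PTCH1 that was a condition of being picked. All 3 genes kept their call in each of the 28 alternative settings.

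Transcripts of 1 gene can differ in their response, so the hedgehog probes are shown beside their values. The GLI1 probe at chr6:72032726-72032785 (+) fell by 3.42 ± 0.47 SE, the smallest of 6 GLI1 falls (largest −6.70). The first PTCH1 probe, at chrUn:118469071-118469803 (+), was at −3.54 ± 0.42 SE. The second, at chrUn:118491950-118495348 (+), was at 0.97 ± 0.38 SE (adjusted p = 0.0711 over all probes), the only 1 of 7 PTCH1 probes above 0.
GLI1: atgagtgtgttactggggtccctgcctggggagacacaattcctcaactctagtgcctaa
PTCH1 first probe: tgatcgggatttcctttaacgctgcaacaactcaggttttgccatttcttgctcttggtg
PTCH1 second probe: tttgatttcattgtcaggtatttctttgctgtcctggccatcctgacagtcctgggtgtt
The second PTCH1 probe lay at −6.63 to −5.38 on ED and −5.34 to −4.79 on PO arrays. The first lay at −6.23 to −3.93 on ED and −9.11 to −8.35 on PO arrays, so it was the dimmer of the pair at PO.

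In the wider list of hedgehog, WNT and NOTCH genes 5 of 31 rose and 5 fell, 16.1% each way against 14.5% and 8.04% of all features. The falls included GLI1, PTCH1, HHIP and LRP6, a WNT coreceptor (−1.03). The rises were in the WNT ligand WNT11 (2.74 ± 0.73 SE), the receptor FZD4 (2.32 ± 0.38 SE), LEF1 (1.26) and AXIN2 (1.10) of WNT signalling, and GLI3 (2.31), a hedgehog transcription factor that can repress. WNT11 was at 2.55 (adjusted p = 0.068) without ED 3 and ED 5, where the list had 2 rises. With normexp background correction WNT11 was at 0.98 (0.196) and FZD4 at 0.54 (0.514). SMO, which transmits the hedgehog signal, and SUFU were tested and not called. Of 35 TGF-beta and BMP genes 9 rose and 1 fell, 25.7% and 2.86% against 14.5% and 8.04% of all features. Rises numbered 4 or 5 without ED 1, ED 2, ED 3, ED 5, PO 2, PO 3 or PO 4, each in turn, and 3 without both ED 3 and ED 5. Called members included the receptor BMPR2 at 1.81 ± 0.37 SE and the signal transducer SMAD5 at −1.27 ± 0.23 SE. The other 7 SMAD5 probes were at −0.99 to −0.71.

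**Figure D3:**
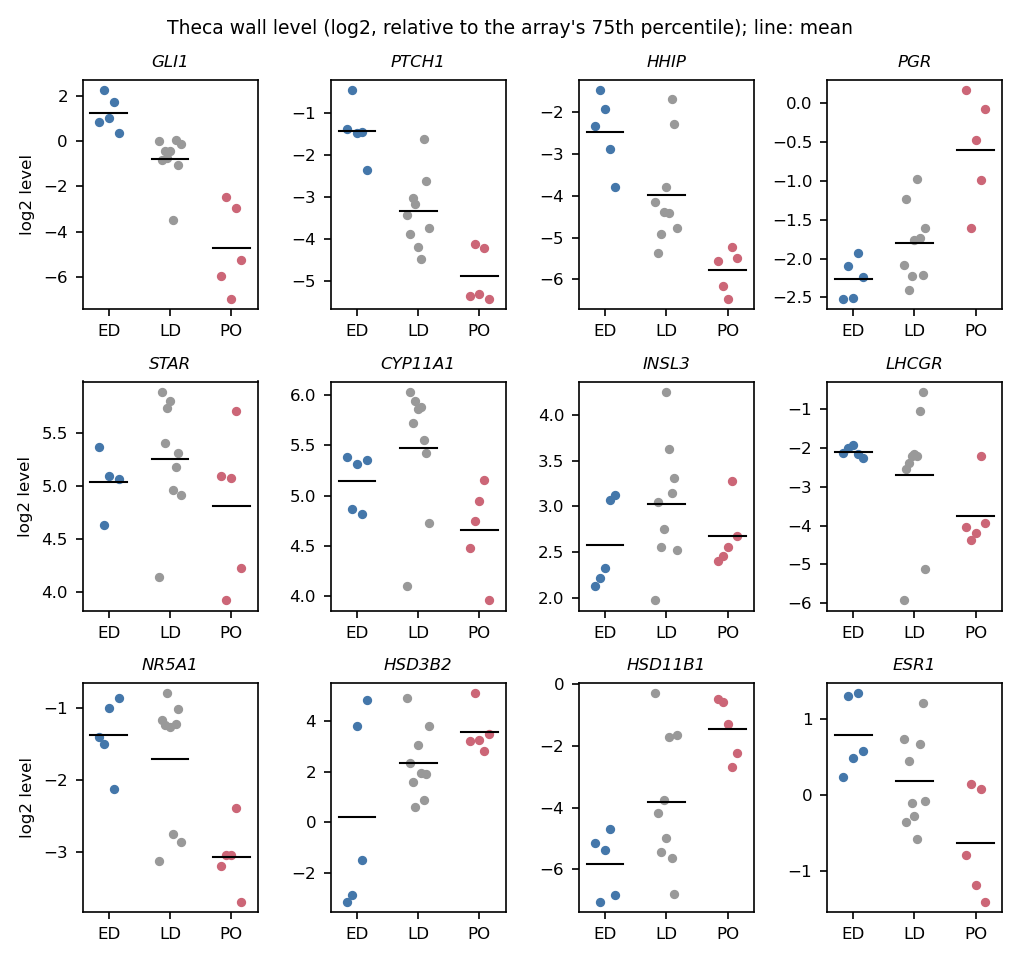
Level of hedgehog targets, steroidogenic genes and receptors on the log2 scale relative to the 75th percentile of the array, in each ED (5), LD (9) and PO (5) theca wall array, with the mean as a line. GLI1, PTCH1 and HHIP lie lower on all PO arrays than on any ED array, STAR, CYP11A1 and INSL3 overlap, and HSD3B2 is split on the ED arrays.

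The steroidogenic core of the theca was not called. STAR, which carries cholesterol into mitochondria, lay at 5.37, 4.63, 5.10 and 5.07 on ED 1, 2, 3 and 5, with no value on ED 4, and at 5.10, 3.92, 5.08, 5.71 and 4.23 at PO (−0.23 ± 0.36 SE, 0.672). CYP11A1, which cuts the cholesterol side chain, lay at 5.38, 4.87, 5.31, 4.82 and 5.35 at ED and at 4.48, 4.75, 4.95, 5.16 and 3.96 at PO (−0.49 ± 0.33 SE, 0.294). INSL3, a theca hormone, lay at 2.13 to 3.12 at ED and 2.40 to 3.28 at PO (0.10 ± 0.34 SE, 0.856). Its dimmer second probe was at −1.13 ± 0.71 SE (adjusted p = 0.25 over all probes). The ranges of all 3 genes overlapped. CYP17A1, the androgen-making lyase, was saturated on 5 of 5 ED and 4 of 5 PO arrays, so no fold is given.

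LHCGR, the receptor for luteinising hormone, lay at −2.12, −2.01, −1.92, −2.17 and −2.26 at ED and at −4.05, −4.38, −4.19, −2.22 and −3.93 at PO. Only PO 4 of slide 7 was within the ED range, and the difference of −1.65 ± 0.77 SE was not called (0.127). With the 10 ED and PO arrays alone it was called at the same value (0.00896), while the 9 LD arrays ran from −5.93 to −0.56. NR5A1, the transcription factor SF-1 that drives steroidogenic genes, went from −1.41, −1.5, −1.0, −2.13 and −0.87 to −3.20, −3.04, −3.05, −2.39 and −3.70. The groups did not overlap (−1.69 ± 0.44 SE, 0.0113), 5 of its 6 probes fell and a dim sixth was at 0.28 ± 0.45 SE. Without ED 3 and ED 5 it was at −1.40 with adjusted p = 0.0837.

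HSD3B2, which completes progesterone, was split on the ED arrays, at −3.16, −2.87, 3.82, −1.51 and 4.82, and lay at 3.20, 5.09, 3.23, 2.81 and 3.50 at PO. The high values at ED were on ED 3 and ED 5, the arrays with the highest granulosa markers, and GC arrays had a mean of 5.79 at ED. The difference of 3.34 ± 1.28 SE was not called (0.0653). It was called without ED 3 (4.25, 0.0274), without ED 5 (4.49, 0.0138) and without both (6.08, 0.00392). HSD11B1, which makes active glucocorticoid from its inert form, rose from −5.15, −7.06, −5.39, −4.70 and −6.84 to −0.47, −0.58, −1.28, −2.67 and −2.23, with no overlap (4.38 ± 1.00 SE, 0.00547). Of 21 steroid synthesis genes 2 rose and 3 fell (median −0.31), 9.52% and 14.3% against 14.5% and 8.04% of all features. The calls not yet given were SRD5A1 (0.93), CYB5A (−1.20) and FDXR (−1.47). None of them was called with normexp background correction (0.0771 to 0.834). Leaving out ED 2, ED 5 or PO 5 left 1 fall, leaving out both ED 3 and ED 5 left 0, and rises numbered 4 without ED 5. Genes of cholesterol synthesis and uptake rose in 7 of 26 cases (26.9% against 14.5% of all features) and fell in 0, led by SOAT1, which esterifies cholesterol for storage (2.05 ± 0.46 SE). That count was 3 or 4 on leaving out any 1 ED or PO array and 3 without slide 7.

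Steroid receptors differed among themselves. ESR1, estrogen receptor alpha, went from 0.24, 1.30, 0.49, 1.33 and 0.58 to −0.78, 0.14, −1.18, 0.080 and −1.40, with all PO arrays below the ED range (−1.41 ± 0.37 SE, 0.0114). The other 5 ESR1 probes fell less, by −0.97 to −0.48. The glucocorticoid receptor NR3C1 fell from −0.52 to −0.20 over the ED arrays to −2.0 to −0.95 over the PO arrays (−1.27 ± 0.27 SE, 0.00349). Its other 2 probes were at −1.4 and −0.37. PGR rose, as given above. Of 18 gonadotropin and hormone receptors 2 rose and 3 fell, 11.1% and 16.7% against 14.5% and 8.04% of all features.

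Endothelial markers rose in 8 of 20 cases (40% against 14.5% of all features) and fell in 0 (median 0.98), with summed levels of 6.98 to 19.4 at ED and 15.0 to 21.8 at PO. The count was 10 without slide 7, and 5 without ED 2, ED 3, ED 5, PO 3 or PO 5, each in turn, or without both ED 3 and ED 5. NOS3, endothelial nitric oxide synthase, went from −5.04, −5.74, −5.81, −5.61 and −6.54 to −4.67, −3.73, −2.63, −3.11 and −2.56 (2.41 ± 0.54 SE, 0.00522). CDH5, the cadherin of endothelial junctions, went from −3.84, −4.74, −4.0, −4.42 and −4.91 to −3.45, −2.23, −3.23, −2.53 and −2.63 (1.57 ± 0.40 SE, 0.0106). Both were without overlap, and both lost their call with normexp background correction (0.149 and 0.138).

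ANGPT2, which loosens vessel walls, rose from −0.46, −2.29, −1.08, −1.48 and −2.20 to 0.69, −0.66, 0.044, 0.43 and 1.02, where PO 2 was within the ED range (1.81 ± 0.50 SE, 0.016). It was at 1.72 (0.0681) without ED 3 and ED 5. VEGFA, the main endothelial growth factor, lay at −2.87, −2.93, −2.99, −2.92 and −3.55 at ED and at −2.79, −2.69, −2.63, −2.72 and −2.63 at PO. All PO arrays were above the ED range, but the difference of 0.36 ± 0.21 SE was not called (0.232), and the receptor KDR was at 0.45 ± 0.38 SE (0.418). PECAM1, an endothelial adhesion molecule, rose by 1.11 ± 0.38 SE (0.0456), with 3 of 5 PO arrays above the ED range. That call was lost under 15 of the 28 alternative settings, among them leaving out any ED or PO array but ED 4 (adjusted p of 0.0516 to 0.0974). Of 37 angiogenic factors and receptors 14 rose and 2 fell, 37.8% and 5.41% against 14.5% and 8.04% of all features. Rises numbered 18 without slide 7 and 7 without ED 3 and ED 5. FGF2 (2.76 ± 0.60 SE) and ANGPTL4 (2.11 ± 0.42 SE) were among the genes that rose.

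Theca stromal markers, apart from the hedgehog targets GLI1, PTCH1 and HHIP in that list, gave 2 calls among the other 11, PDGFRA (1.46 ± 0.32 SE) and THBS2 (1.39 ± 0.38 SE). THBS2 was at 1.11 (0.105) without ED 3 and ED 5. Smooth muscle markers rose in 4 of 19 cases (7 without slide 7 or without ED 4, 2 without ED 5), 21.1% against 14.5% of all features. Their sums were 20.2 to 62.9 at ED and 22.4 to 57.7 at PO, and ACTA2, smooth muscle actin, was at 0.18 ± 0.49 SE (0.813). Among 33 collagens and structural matrix genes 5 rose, 15.2% against 14.5% of all features, and 1 fell (3 rises without ED 1, ED 3, PO 1, PO 2 or PO 3, each in turn). COL6A2 rose by 1.32 ± 0.22 SE (0.00102). KRT18, a keratin counted among the granulosa markers, went from −3.14, −3.1, −0.32, −3.45 and −3.04 to 3.24, 3.21, 1.60, 0.43 and 0.11. ED 3 was the one high ED array, and all PO arrays were above it (4.32 ± 1.27 SE, 0.0217, and 3.94 with 0.056 without PO 1). The other 14 granulosa markers tested were not called, and rises in that list numbered 3 without ED 5.

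Genes of cell survival and the cell cycle showed calls in both directions. Of 30 apoptosis regulators 11 rose and 1 fell (6 rises and 0 falls without ED 3 and ED 5). These were 36.7% and 3.33% of members on all arrays, against 14.5% and 8.04% of all features. BIRC3, an inhibitor of cell death, went from −2.46, −3.01, −2.79, −3.0 and −3.03 to 0.65, −0.13, 0.43, −0.36 and 0.61 (3.1 ± 0.42 SE, 0.000569). The groups did not overlap. PMAIP1, which promotes death (2.73 ± 0.58 SE), and MCL1, which opposes it (1.94 ± 0.36 SE), both rose.

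Cell cycle inhibitors and D cyclins gave 7 rises and 5 falls among 17, 41.2% and 29.4% against 14.5% and 8.04% of all features. The antiproliferative BTG2 (3.68 ± 0.81 SE) and BTG1 (2.10 ± 0.39 SE) and the inhibitor CDKN1A (2.34 ± 0.46 SE) rose, and the cyclins CCND2 (−1.04) and CCND3 (−0.97) fell. CDKN1A was at 0.67 (0.348) with normexp background correction. The falls numbered 3 without ED 1, ED 4, ED 5, PO 1, PO 3 or PO 5, each in turn. Of 63 cell division genes 0 rose and 5 fell (median −0.32, 7.94% of members against 8.04% of all features). MCM5, a subunit of the replication helicase, went from 0.35, 0.16, 1.05, 1.14 and 0.84 to −0.83, −0.65, −1.13, −0.42 and −0.85 (−1.49 ± 0.35 SE, 0.00728). The groups were apart, and adjusted p was 0.0734 with all 34 arrays in 1 fit and 0.054 without ED 3 and ED 5. The count of 5 was 1 without PO 3 or PO 5, 2 without ED 1, ED 4 or PO 1 and 3 without ED 3 or PO 2.

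Of 50 cytosolic ribosomal protein genes 0 were called in either direction by limma, with 0 at an unadjusted p under 0.05 (median −0.16). RPS10, the member with the smallest p, was at −0.36 ± 0.20 SE (0.197). Respiratory chain genes had 3 falls and 0 rises among 26 (median −0.23), and the falls were 11.5% of members against 8.04% of all features. NDUFS3, a subunit of complex I, lay at 2.67, 2.50, 2.67, 2.47 and 2.57 at ED and at 1.69, 2.18, 1.73, 1.89 and 1.53 at PO, without overlap (−0.77 ± 0.16 SE, 0.00283). The falls were 1 without PO 1 or PO 5 and 5 without PO 4. Of 24 endoplasmic reticulum stress genes 10 rose (41.7% against 14.5% of all features) and 0 fell. The rises numbered 4 or 5 without ED 2, ED 4, ED 5, PO 1, PO 3 or PO 5, each in turn. Glycolysis and hypoxia genes rose in 7 of 34 cases (20.6% against 14.5% of all features) and fell in 1. The rises were led by the glucose transporter SLC2A3 (3.11 ± 0.50 SE, with adjusted p = 0.0525 with normexp background correction). DDIT4, induced by low oxygen (2.21 ± 0.38 SE), and NDRG1 (1.89 ± 0.28 SE) were among them.

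**Figure D4:**
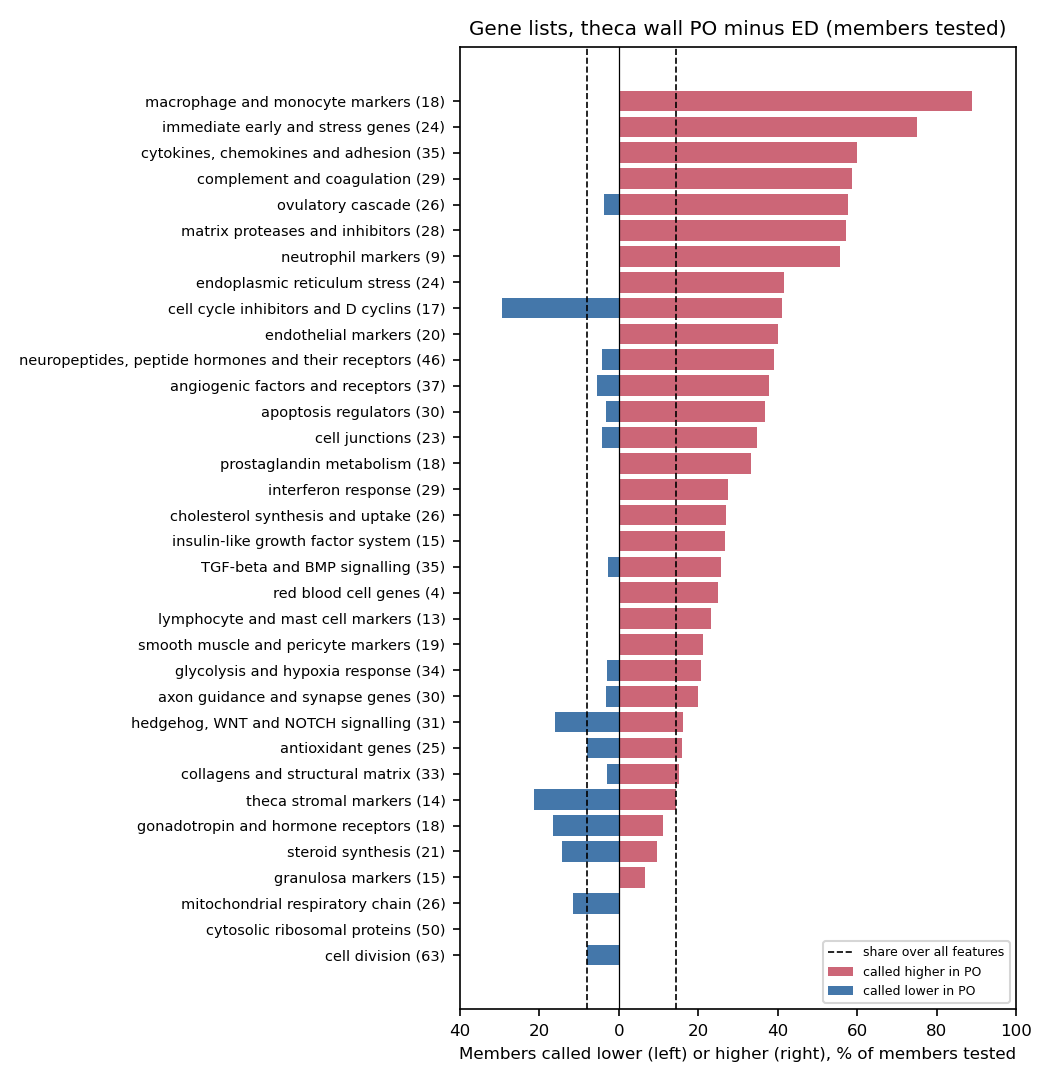
Percentage of tested members called higher (right) and lower (left) at PO in each gene list, with the number tested in brackets and the shares over all 19284 features, 14.5% and 8.04%, as dashed lines. Macrophage markers (16 of 18), immediate early genes (18 of 24) and cytokines (21 of 35) lie at the top, and cell division and ribosomal protein genes, with 0 rises, at the bottom.

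The other leading falls were spread over several functions. HPD, an enzyme of tyrosine breakdown, went from −3.74 to −1.46 over the ED arrays to −9.55 to −6.50 over the PO arrays, where 1 of 5 was well above background (−5.66 ± 0.96 SE, 0.00119). FTCD, an enzyme of histidine breakdown, fell from a range of 1.53 to 2.95 at ED to one of −3.85 to −0.32 at PO (−3.91 ± 0.92 SE, 0.00676). MLPH, which ties pigment granules to myosin in melanocytes, was at −3.80 ± 0.72 SE, and CRIPTO, a coreceptor for Nodal, was at −3.64 ± 0.60 SE (missing on ED 1). Next came the protease ADAMTS18 (−4.20 ± 0.95 SE), the glycosyltransferase B3GALT2 (−3.98 ± 0.86 SE) and GOLT1A (−3.90 ± 0.85 SE). GRIK4, a glutamate receptor subunit, fell at least 4.11-fold and MYH1, a myosin heavy chain, at least 4.01-fold, with no PO array well above background. RPRML (−4.66 ± 1.33 SE), TSGA10IP (−4.47 ± 1.15 SE) and TNNI1, slow troponin I (−3.31 ± 0.85 SE), were called in the comparison of all arrays. Their adjusted p without ED 3 and ED 5 was 0.0632, 0.0624 and 0.0689. EQUCABV1R933, described as a vomeronasal receptor, was at −3.49 ± 0.69 SE and well above background on 1 of 5 PO arrays, against 2 of 5 for RPRML and B3GALT2. With normexp background correction EQUCABV1R933 (−0.76), GRIK4 (−0.49), MYH1 (−0.45) and RPRML (−1.75) were not called, at adjusted p of 0.0857 to 0.68.

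LD arrays, which lie between the stages, are given beside these values and share arrays with the comparison. LD differed from ED in 2 features higher and 2 lower (0.0104% each, 0.0207% in all), and PO differed from LD in 1535 higher (7.96%) and 758 lower (3.93%), 11.9% in all. GLI1 had a mean of 1.25 at ED, −0.78 at LD and −4.72 at PO, and PTCH1 −1.44, −3.35 and −4.90. SST had means of −8.74, −6.97 and −0.70, CHRDL2 −7.39, −4.19 and 0.96, and CD68 −2.11, −1.37 and 0.23. LD arrays were uneven. CHRDL2 was at 2.15 on LD 1, 0.13 on LD 6 and −2.37 on LD 9 and below −3.5 on the other 6. NR4A2 was at 1.81 on LD 6 and at −4.18 to −2.51 on the other 8, and GLI1 was at −3.50 on LD 6 and at −1.05 to 0.058 elsewhere. Without LD 6 in the fit, 3299 features were called higher and 1690 lower between PO and ED.

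Whether a change was particular to the theca wall was tested against the change from ED to PO in granulosa cells, as an interaction on all 34 arrays. Of 19773 features 3345 (16.9%) changed more in the positive direction in TW and 2204 (11.1%) less, 28.1% in all, and 3261 and 2083 without slide 7. Changes within GC itself were frequent, at 43.3% of 17867 features (20.8% higher, 22.4% lower). No slide held both ED or PO arrays of theca wall and of granulosa cells, so slide effects and differences in level between the layers cannot be told apart. The paired ED and PO arrays of theca wall shared a slide. A slide effect that was the same on the ED and PO arrays therefore cancels in the theca wall change. A slide effect that differed between the stages was not tested. With slide as a random replicate block over all 34 arrays the interaction gave 3817 higher and 2479 lower.

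SST rose more in TW than in GC, by 7.02 (adjusted p = 0.000347), with GC means of −8.53 at ED and −7.50 at PO. CHRDL2 (5.46, 0.033), CHGB (5.01, 0.00596), CALCA (4.70, 0.00165), NR4A2 (5.92, 0.000954) and C3 (4.15, 0.0203) rose more in TW too. EREG (−0.063, 0.987), CGA (−0.65, 0.866), PLAT (−0.23, 0.94) and CD68 (−0.22, 0.822) were not called in this test, and GC changed by 7.35, 8.91, 5.23 and 2.56 in them. GLI1 (−4.23, 0.00221), PTCH1 (−3.66, 0.000268) and HHIP (−5.91, 5.17e-05) fell more in TW, and HHIP had a GC change of 2.61. STAR (−4.18, 0.00759), PLAU (−6.09, 0.000725) and ANGPT2 (−3.66, 0.0241) changed less in TW, with GC changes of 3.95, 7.56 and 5.47.

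The widest gaps came from granulosa changes. NDC80 of the kinetochore was at 0.041 in TW and −8.35 in GC, a gap of 8.39 ± 1.33 SE (7.44e-05). CENPF (7.58), also of the kinetochore, ASPM (7.52) of the spindle, and HSD17B1 (7.52), which makes estradiol, had GC changes of −8.64, −7.95 and −9.16. NOS2, the inducible nitric oxide synthase, was at 1.20 in TW and −6.79 in GC (gap 7.99 ± 1.28 SE). Of 63 cell division genes 60 were called in the interaction as changing less downward in TW than in GC, with list medians of −0.32 and −4.90. Of all features 16.9% were called in that direction. On the other side were GNAZ, a G-protein subunit (−1.47 in TW, 6.84 in GC), the kinase NIM1K (1.20 and 9.32), the myosin light chain MYL7 (−2.55 and 4.55), AGPAT4, which makes phosphatidic acid (−0.23 and 6.81), and the transporter SLC5A12 (−2.46 and 4.41), with gaps of −8.31 to −6.87. BIRC3 (3.1 and −0.76) and KRT18 (4.32 and −2.04) had changes of opposite sign in the layers.

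**Figure D5:**
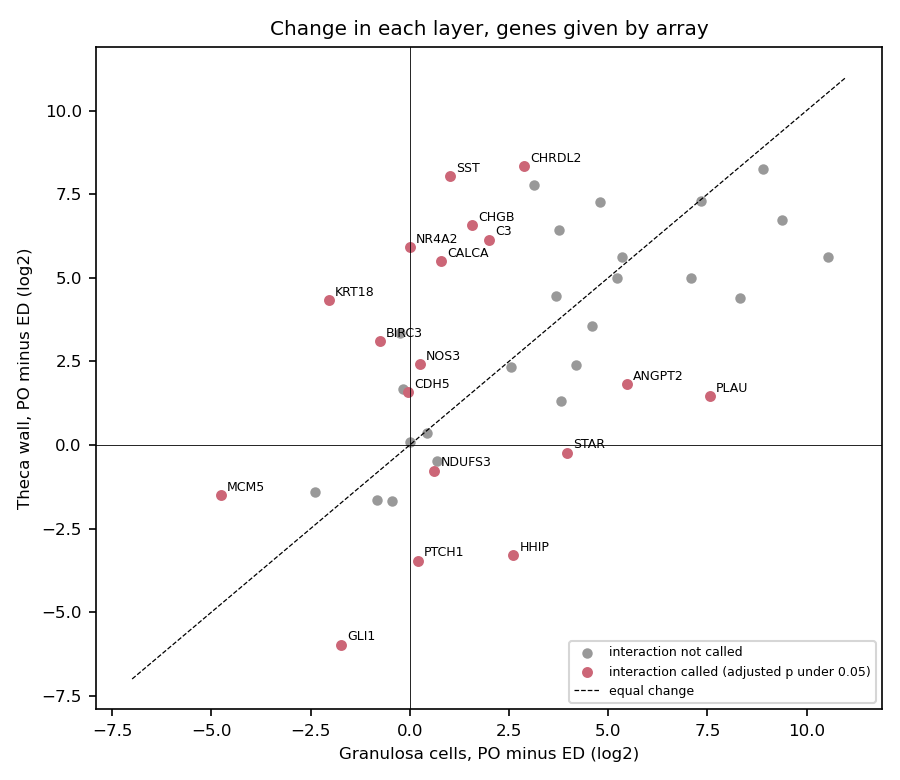
Change from ED to PO in theca wall (vertical, log2) against that in granulosa cells (horizontal, log2) for the genes whose arrays are given in the text, as means over 5 arrays a stage. Named points passed the interaction test, and the dashed line marks equal change. SST, CHGB, CALCA and NR4A2 rise in theca wall with GC changes of −0.0087 to 1.57, while PLAU, STAR and ANGPT2 lie below the line.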

How the data were processed

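Gene expression was measured on 34 one-colour arrays. The labels' protocols describe TRIzol extraction, an integrity check, amplification from an oligo(dT)-T7 primer and Cy3 label. The deposited intensity is the background-subtracted processed signal of Feature Extraction 9.5.3.1, per the file headers (9.1 per the submitters' processing notes), without scaling between arrays. The deposited value table holds log2 values whose processing is not stated, and served as an alternative.

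Levels were log2 of the processed signal minus the 75th percentile of the array. Control spots and spots flagged as non-uniform or population outliers were left out, saturated spots kept. Probes well above background on at least 5 arrays of a fit were tested. Each gene, and each transcript without a symbol, was represented by its probe of the highest mean. Of 43603 probes 22394 received a symbol (12215 symbols) through a RefSeq gene table used for names only, and 529 of them from a protein name in the description, some paired by hand after values were seen. Fits used limma 3.58.1 in R 4.3.3 (lmFit, eBayes) with a mean for each stage, and the procedure was tested on simulated data. "At least" folds compare the brighter group's mean with a floor on each dim array, its lowest signal well above background or the probe's own signal if that is higher. They hold on this scale and are no lower limit over the alternative settings. The number of arrays limits the precision.

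Named genes were the 15 largest called rises and falls with all 5 PO arrays outside the ED range, up to 6 called members of each list by size of change, a fixed set of ovulation and steroid genes, and the 5 largest interactions in each direction. Other list members are given by value alone. The groups, the lists and the genes were chosen with earlier results of these data known. Some genes are not reported here. Deviations of ED and PO arrays on the same slide correlated at −0.12 to 0.081 outside slide 7. On slide 7 the correlation was 0.21, against −0.22 to 0.028 with other slides. With slide as a random replicate block over the 19 TW arrays the slide correlation was 0.14.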

Additional observations from a re-analysis of the deposited data

Results flagged for a closer look

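Single arrays stood far from the other 4 of their group in 12 of 106 groups of 5, where chance gives about 1 in 20. Groups with a missing value, such as STAR at ED and ADAMTS4 and CD14 at PO, are counted in the 106 but could not be flagged. Slide 7 held 10 of the 12. CGA was at 2.19 on PO 4 (others 4.36 to 5.05), LHCGR at −2.22 on PO 4 (others −4.38 to −3.93), and FGF7 at −6.36 on ED 4 (others −9.25 to −8.56) and −2.22 on PO 4 (others −0.41 to −0.12). Repeated probes varied by 24.5% on ED 4 and 15.4% on PO 4, and 1317 and 1718 spots were flagged as outliers. On ED 4 theca stromal markers summed to 289 (others 182 to 199) and smooth muscle markers to 62.9 (others 20.2 to 28.5). Outside slide 7, VEGFA was at −3.55 on ED 5 (others −2.99 to −2.87) and KRT18 at −0.32 on ED 3 (others −3.45 to −3.04).

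The change from ED to PO differed between theca wall and granulosa cells, by the interaction test, in 18 of the 42 genes given by array. Theca wall was above granulosa for SST (7.02), KRT18 (6.37), NR4A2 (5.92), CHRDL2 (5.46), CHGB (5.01), CALCA (4.70), C3 (4.15), BIRC3 (3.86), MCM5 (3.28), NOS3 (2.16) and CDH5 (1.60). It was below for PLAU (−6.09), HHIP (−5.91), GLI1 (−4.23), STAR (−4.18), PTCH1 (−3.66), ANGPT2 (−3.66) and NDUFS3 (−1.39).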

How the results depend on the processing

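Of 192 named genes called, 81 kept their call under every alternative setting that tested them (28 settings for 80 genes, 26 for NR4A3), 111 lost it under 1 or more and 0 reversed. The settings that ended most of these calls were normexp background correction (78 genes) and leaving out ED 3 and ED 5 (73, a setting added after seeing the marker sums). Of 25 named genes not called, 13 were gained under 1 or more. The count of higher features was 4885 with array quality weights, 994 with normexp, 1855 in the deposited table, 5600 with every probe singly and 1384 without ED 3 and ED 5, and 2102 to 3080 on leaving out 1 ED or PO array. The count of lower features was 815 with all 34 arrays, 3383 with array weights, 3696 with median centring, 2845 in the deposited table, 2546 after quantile normalization, 592 after normexp, 3014 with every probe singly and 767 without ED 3 and ED 5. It was 950 to 1860 on leaving out 1 ED or PO array, with 965 without PO 1 and 950 without PO 3. With normexp the interaction gave 1945 higher and 1320 lower. Slide as a replicate block over the 10 arrays gave 3251 higher and 1886 lower, and as a random block over 19 arrays 3448 and 1994. Fewer arrays or more tests enter some of these settings, and otherwise the cause was not tested. Folds of genes dim at one stage and of saturated spots are limited by the signal range.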
